A study of Mus musculus with 2 samples.

Results

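The genes described here are 10 receptors, bridging molecules and partners through which phagocytes take up cells that expose phosphatidylserine. They were matched by symbol to the feature lists of 2 single-cell libraries, and all 10 were found among the 34290 genes listed. The group holds the receptors Mertk, Axl, Stab1 and Cd300lf, the secreted bridging proteins Gas6, Pros1 and Mfge8, the integrin chains Itgav and Itgb5, and the signalling adaptor Elmo1. Integrin chains form a receptor as a pair, and Elmo1 is a signalling gene. None of these last 3 is therefore a receptor or bridge by itself.

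The libraries came from tumours of MC38 cells, a mouse colorectal cancer line, grown in mice for 21 days. The TMEM16F KO library came from mice engrafted with MC38 cells whose TMEM16F had been deleted, and the vector control library from mice engrafted with MC38 cells carrying the empty vector. The mice of both groups were untreated, and each group had 1 library. The deletion was carried by the tumour cells alone, so the immune and stromal cells of either tumour came from hosts to which the labels assign no deletion. The sources used here do not give the number, strain and age of the mice, or whether the KO line was 1 clone, and they name tumour tissue in one place and infiltrating lymphocytes in another. With 1 library per group no test was possible, and the effect of the deletion cannot be told apart from variation between tumours or their cell suspensions.

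Phosphatidylserine is kept on the inner face of the plasma membrane in living cells and appears outside when a scramblase such as TMEM16F, the product of Ano6, lets lipids cross. Mertk and Axl are receptor tyrosine kinases that do not touch the lipid themselves. Gas6 and protein S (Pros1) bind phosphatidylserine through their Gla domains and the kinases through their other end, with Axl using Gas6 and Mertk using either. Mfge8 bridges the lipid to the integrin of the alpha v chain (Itgav) and the beta 5 chain (Itgb5), while stabilin-1 (Stab1) and Cd300lf, also called CLM-1, bind the lipid directly. Elmo1 works with Dock proteins to activate Rac and reshape the actin skeleton around the cargo. In macrophages, uptake through Mertk is known for being quiet in inflammatory terms, and Axl for being induced by inflammatory signals.

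Axl and Mertk, the receptor genes whose levels differed most between the libraries, share a protein family but not a promoter layout, and the RefSeq windows of 300 bases around their annotated starts (GRCm38.p6) are shown for that reason. Capitals mark the GC box GGGCGG and the ets-type motif GAGGAA, each searched on both strands. The Axl window lies at chr7:25788684-25788983 on the minus strand and the Mertk window at chr2:128698665-128698964 on the plus strand, both written 5′ to 3′ along the gene.
Axl: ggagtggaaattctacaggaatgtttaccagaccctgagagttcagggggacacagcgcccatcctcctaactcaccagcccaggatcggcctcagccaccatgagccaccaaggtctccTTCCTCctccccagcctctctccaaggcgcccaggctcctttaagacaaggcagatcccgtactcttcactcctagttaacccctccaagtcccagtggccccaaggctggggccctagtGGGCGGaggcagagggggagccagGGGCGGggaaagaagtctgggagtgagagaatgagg
Mertk: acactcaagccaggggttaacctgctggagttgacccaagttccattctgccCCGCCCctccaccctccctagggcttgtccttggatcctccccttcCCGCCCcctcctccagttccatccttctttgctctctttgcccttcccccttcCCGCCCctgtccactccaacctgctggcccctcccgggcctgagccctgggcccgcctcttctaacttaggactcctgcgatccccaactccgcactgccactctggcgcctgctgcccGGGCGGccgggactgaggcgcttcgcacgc
The Axl window held 2 GC boxes and 1 GAGGAA match, and the Mertk window held 4 GC boxes and 0 GAGGAA matches, with no overlap between motifs. Of 32851 mouse promoter windows of the same length, 35.7% held a GC box and 28.3% a GAGGAA match. The GC content was 60.3% for Axl and 66.0% for Mertk, against a median of 52.7% over all windows. These matches describe the letters in the windows, and no binding was measured in this study.

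The TMEM16F KO library held 5993 barcodes with 49777630 unique molecular identifiers (UMIs), and the vector control library 5253 barcodes with 46338994 UMIs. After filtering, 5688 TMEM16F KO and 5028 vector control cells were kept, with medians of 5995 and 6019.5 UMIs, and 14.6% and 20.5% of them had under 2000 UMIs. Between the libraries 10 barcodes were shared. Levels are UMIs of a gene per 1000000 UMIs of the cells summed (CPM), with exact 95% Poisson intervals, and ratios are TMEM16F KO over vector control with exact conditional 95% intervals. These intervals and all floors cover counting error only. Over all kept cells Ano6 itself stood at 33.3 CPM in TMEM16F KO and 28.7 CPM in vector control cells, a ratio of 1.16 (1.08 to 1.25). Stroma-like cells went the other way, with 26 Ano6 UMIs among 658839 in TMEM16F KO and 136 among 1993949 in vector control cells. In stroma-like cells, 6 of 8 markers of tumour epithelium had 0 UMIs in both libraries and the other 2 had 1 UMI, and a 3′ tag need not lie in the deleted part, so the deletion was not checked in tumour cells.

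Cell classes were called from marker UMIs of single cells. The TMEM16F KO library had 3129 and the vector control library 3172 phagocyte-like cells, whose markers include C1qa, Lyz2 and Csf1r, and their medians were 7454 and 6691.5 UMIs. T-like cells numbered 1434 and 1058, NK-like cells 204 and 104, dendritic-like cells 81 and 104, stroma-like cells 51 and 76, and neutrophil-like cells 55 and 30. Phagocyte-like cells were divided by state markers into an Mrc1 set (Mrc1, Pf4, Folr2, Cd163), an Mmp12 set (Mmp12, Mmp13, Arg1, Spp1), an Il1b set (Il1b, Ptgs2, Nlrp3) and an Ly6c2 set (Ly6c2, Ccr2 and 5 other monocyte genes). Cells in which no set was above its mean over phagocyte-like cells form the group in which none leads. Mrc1 and Pf4 serve both the class and the state, and none of the 10 genes was used for either.

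**Figure D1:**
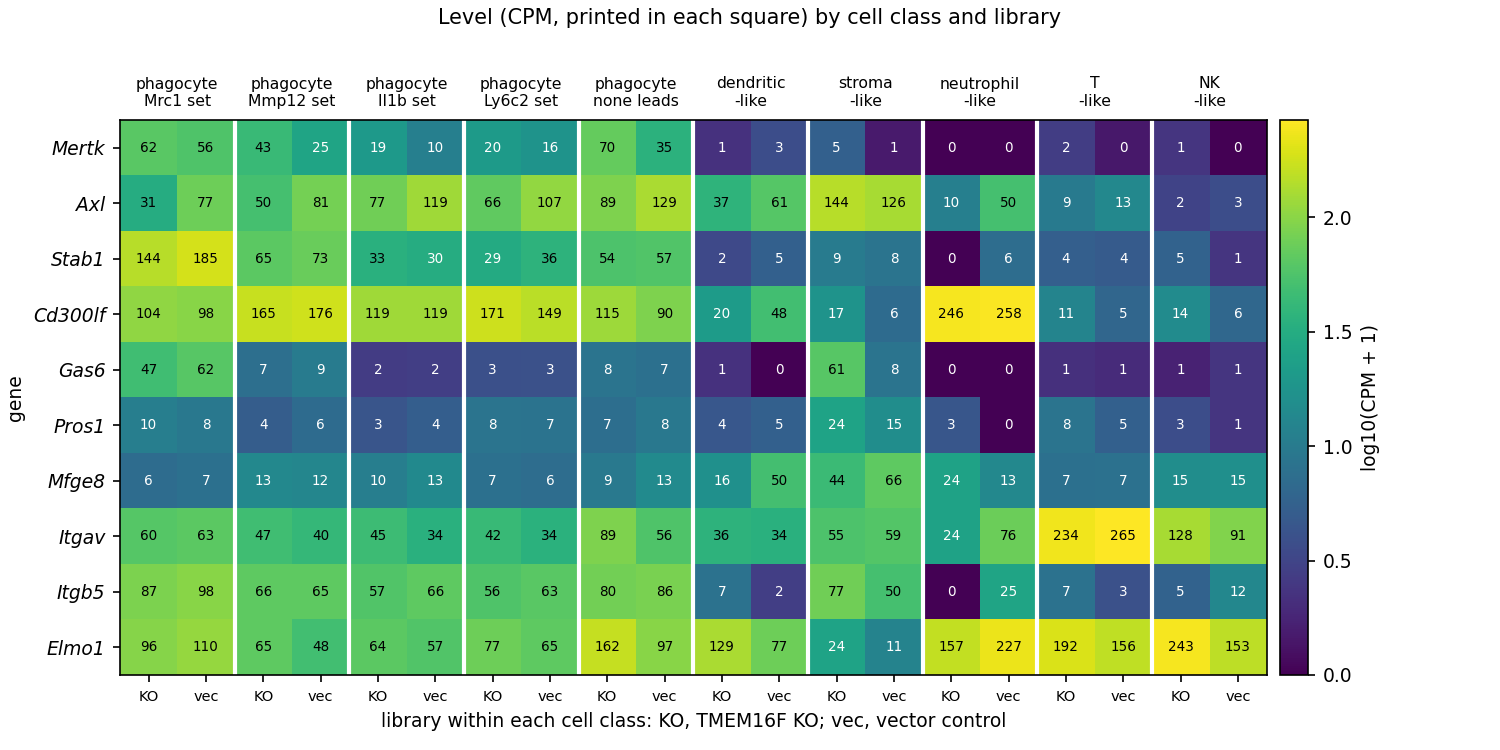
Level of each gene in CPM (printed in each square, colour on a log10 scale of CPM + 1) by cell class, with the TMEM16F KO library on the left and the vector control library on the right of each class. Mertk and Stab1 are highest in the 5 phagocyte columns. Axl and Itgb5 are read in phagocyte and stroma-like columns, and Axl also in dendritic-like columns. Gas6 is read mostly in the Mrc1 set and in TMEM16F KO stroma-like cells, where 28 of its 40 UMIs came from 1 cell. Cd300lf is also read in neutrophil-like cells, and Itgav and Elmo1 also in T-like and NK-like cells.

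Phagocyte-like cells, the largest class, held 95.8% of all Mertk UMIs, 94.9% of Stab1, 90.5% of Cd300lf and 82.2% of Axl. Of the bridging molecules, Gas6 had 90.8% of its UMIs there, Pros1 64.6% and Mfge8 52.8%. The integrin chains parted, with 91.0% of Itgb5 but 36.5% of Itgav UMIs in phagocyte-like cells and 47.2% of Itgav UMIs in T-like cells. Elmo1 had 50.1% of its UMIs in phagocyte-like and 28.4% in T-like cells. These shares are over both libraries and all kept cells, and they move with the number and depth of the cells of a class. Of the UMIs of all genes, phagocyte-like cells held 29113522 of 45859868 in TMEM16F KO and 28735023 of 43012160 in vector control cells. T-like cells held 8554583 and 7037366 of them. The phagocyte share of Pros1 was thus near that of all UMIs, and those of Mfge8, Itgav and Elmo1 were below it.

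Within phagocyte-like cells the genes followed different states. Gas6, the ligand of Axl, was the most restricted, with 67.8% of all its UMIs in the Mrc1 set, where it stood at 47.4 CPM in TMEM16F KO and 61.7 CPM in vector control cells. In the Il1b set it stood at 1.68 and 1.79 CPM. Stab1, a scavenger receptor of tissue macrophages, was also highest in the Mrc1 set, at 144 CPM in TMEM16F KO and 185 CPM in vector control cells, against 33.3 and 30.4 CPM in the Il1b set. Mertk had 62.1 CPM in TMEM16F KO and 56.1 CPM in vector control cells of the Mrc1 set, 69.8 and 34.9 CPM where none leads, and 19.2 and 10.2 CPM in the Il1b set. Axl was lowest in the Mrc1 set at 30.8 CPM in TMEM16F KO and 76.5 CPM in vector control cells, and at 77.4 and 119 CPM in the Il1b set. It was highest where none leads, at 89.3 and 129 CPM, so Gas6 and Axl had their highest levels in different groups of phagocyte-like cells, while Mertk was highest where none leads in TMEM16F KO and in the Mrc1 set in vector control cells. Cd300lf, an inhibitory and lipid-binding receptor of myeloid cells, was highest among phagocytes in the Mmp12 and Ly6c2 sets, at 165 and 171 CPM in TMEM16F KO and 176 and 149 CPM in vector control cells.

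Axl was the only 1 of the 10 genes past 1.5-fold between the libraries in phagocyte-like cells. The rule counted a gene when its ratio was beyond 1.5-fold in either direction and its interval left out 1, among genes with at least 50 UMIs in the class. By it, 10.2% of 12148 genes were called in phagocyte-like cells, 5.74% higher and 4.43% lower in TMEM16F KO, so 1 call among 10 genes is near the background. In all kept cells Axl was again the only call, at 46.4 CPM in TMEM16F KO and 83.8 CPM in vector control cells, against 11.2% of all genes. The median log2 ratio was -0.13 over the 10 genes and 0.03 over all genes tested. The members' number of calls is therefore not a result about the group, and what follows concerns single genes.

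**Figure D2:**
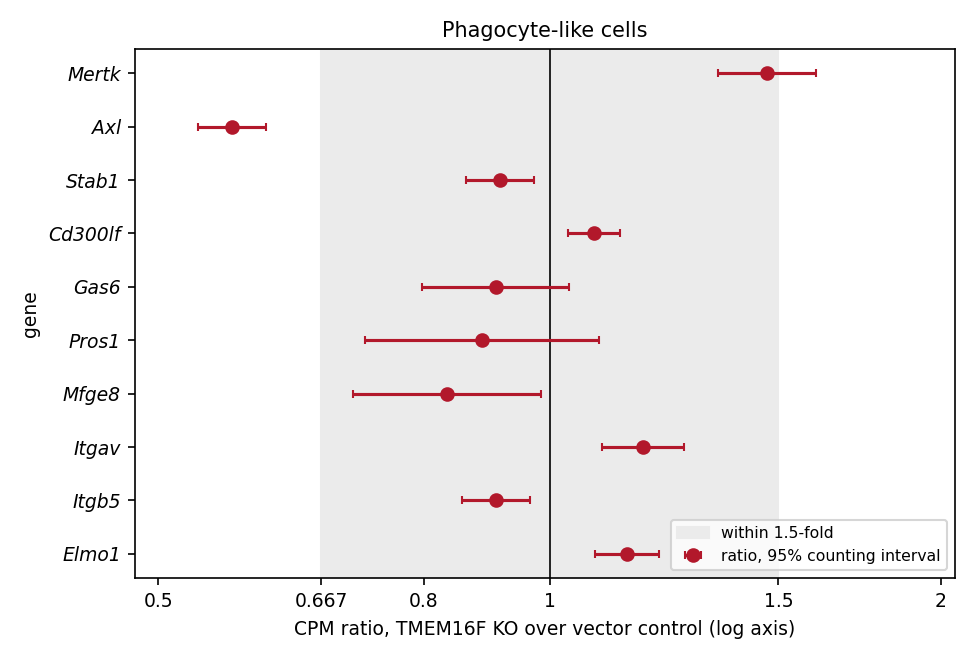
Ratio of CPM, TMEM16F KO over vector control, for the 10 genes in phagocyte-like cells, on a log axis with exact 95% counting intervals and the range within 1.5-fold in grey. Axl at 0.569 lies outside the grey range, Mertk at 1.47 lies just inside it, and the other 8 genes lie between 0.834 and 1.18.

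Axl (ENSMUSG00000002602, chr7:25757273-25788705, minus strand in GENCODE M21 on GRCm38) had 1724 UMIs in TMEM16F KO and 2988 UMIs in vector control phagocyte-like cells. This gave 59.2 CPM (56.5 to 62.1) in TMEM16F KO and 104 CPM (100.3 to 107.8) in vector control cells, a ratio of 0.569 (0.536 to 0.604), or 1.76-fold lower. The UMIs were spread over 942 TMEM16F KO and 1351 vector control cells, with at most 8 and 14 in a single cell. After every cell was thinned to 2000 UMIs, 10.3% (9.22 to 11.6) of TMEM16F KO and 16.3% (14.9 to 17.9) of vector control phagocyte-like cells had an Axl UMI, against 30.1% and 42.6% before thinning. Thinning left out 422 TMEM16F KO and 701 vector control cells with too few UMIs. In T-like cells, which are not known for Axl, the thinned shares were 1.61% and 2.98%, with median depths of 4768 and 5366 UMIs.

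The lower Axl level was seen in every state of the phagocyte-like cells. In the Mrc1 set the ratio was 0.402 (0.341 to 0.474), in the Mmp12 set 0.613 (0.535 to 0.701), in the Il1b set 0.649 (0.577 to 0.730), in the Ly6c2 set 0.622 (0.516 to 0.748), and where none leads 0.692 (0.616 to 0.775). The last of these was the only one inside 1.5-fold. The share of all genes called lower in TMEM16F KO was 4.56% in the Mrc1 set, 2.06% in the Mmp12 set, 5.14% in the Il1b set, 2.53% in the Ly6c2 set and 5.34% where none leads. Outside the phagocytes, stroma-like cells had the highest Axl level of the cell classes and did not show a lower level, with 144 CPM (117 to 176) in TMEM16F KO and 126 CPM (111 to 143) in vector control cells. The median depth of stroma-like cells was 8077 UMIs in TMEM16F KO and 22399.5 UMIs in vector control cells.

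**Figure D3:**
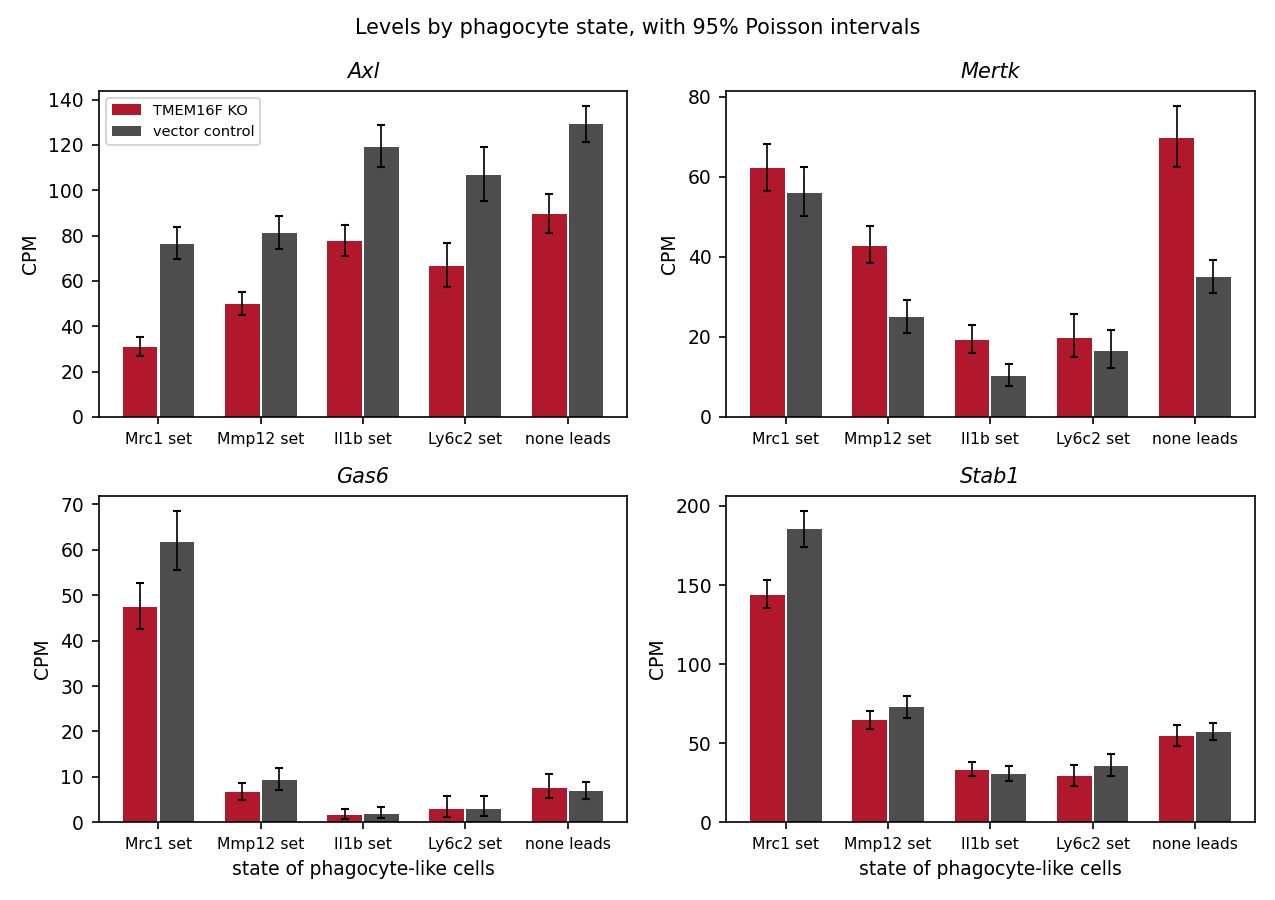
CPM of Axl, Mertk, Gas6 and Stab1 in 5 states of phagocyte-like cells, TMEM16F KO (red, left) beside vector control (grey, right), with exact 95% Poisson intervals. Axl is lower in TMEM16F KO in every state, Mertk is 2.00-fold higher where none leads and near level in the Mrc1 set, and Gas6 is read mostly in the Mrc1 set.

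The same genes were then compared inside clusters, which were built without any of the 10 genes. There were 11 clusters made up mostly of phagocyte-like cells with at least 50 cells from each library. Axl was lower in TMEM16F KO in 11 of 11, with ratios between 0.212 and 0.790 and a median of 0.594, and past 1.5-fold in 7. Its interval took in 1 in cluster 6, at 0.689 (0.377 to 1.18), and in cluster 15, at 0.744 (0.475 to 1.18). Of 2119 genes with at least 50 UMIs in each of these clusters, 7.17% were lower in TMEM16F KO in all 11. The share of tested genes called lower in TMEM16F KO was 4.11% in cluster 0, 3.22% in cluster 1, 4.66% in cluster 3, 2.17% in cluster 4, 4.48% in cluster 6, 2.84% in cluster 8, 5.65% in cluster 11, 3.28% in cluster 12, 3.7% in cluster 14, 5.9% in cluster 15 and 3.92% in cluster 18. Over both libraries the highest Axl level was in cluster 1, which has Ctsk and Ocstamp among its leading genes, at 109 CPM in TMEM16F KO and 138 CPM in vector control cells, a ratio of 0.790 (0.706 to 0.884). In cluster 0, led by Ppbp, Mmp10 and Npy, Axl stood at 30.2 CPM in TMEM16F KO and 73.5 CPM in vector control cells. In cluster 18, led by Fbxo32, Gdf15 and Ccl5, it stood at 21.7 and 103 CPM, but there the cells had medians of 11702 and 3582 UMIs.

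**Figure D4:**
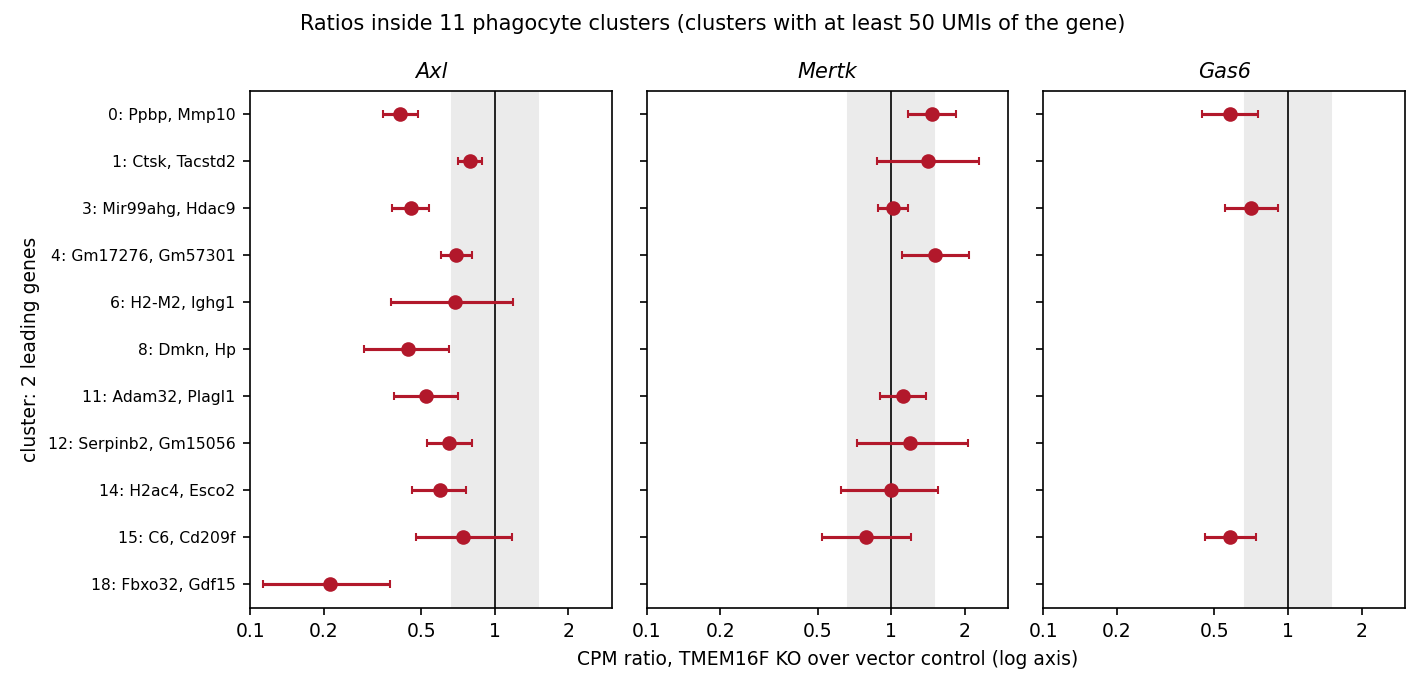
Ratio of CPM, TMEM16F KO over vector control, of Axl, Mertk and Gas6 inside 11 phagocyte clusters (named by number and 2 leading genes) on a log axis with exact 95% counting intervals, for clusters with at least 50 UMIs of the gene. The 11 Axl points lie left of 1, the 8 Mertk points lie between 0.784 and 1.51, and the 3 Gas6 points lie between 0.580 and 0.709.

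Mertk (ENSMUSG00000014361, chr2:128698956-128802894, plus strand), the receptor tied to clearance of dying cells by macrophages, was higher in TMEM16F KO but did not pass 1.5-fold. It had 1296 UMIs in TMEM16F KO and 871 UMIs in vector control phagocyte-like cells, or 44.5 CPM (42.1 to 47.0) in TMEM16F KO and 30.3 CPM (28.3 to 32.4) in vector control cells, a ratio of 1.47 (1.35 to 1.60). With every cell weighted alike in place of every UMI the ratio was 1.96, past 1.5-fold, and with the 5 states weighted alike it was 1.50. The thinned share of cells with a Mertk UMI was 8.72% (7.68 to 9.84) in TMEM16F KO and 5.75% (4.86 to 6.74) in vector control cells, and 0.538% and 0.106% in T-like cells. By state the ratio ranged from 1.11 (0.959 to 1.28) in the Mrc1 set to 2.00 (1.70 to 2.35) where none leads. It passed 1.5-fold in the Mmp12 set at 42.9 CPM in TMEM16F KO and 24.9 CPM in vector control cells, in the Il1b set, and where none leads.

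The level of Mertk was higher in cells with a larger share of Malat1, an abundant nuclear noncoding RNA. Phagocyte-like cells had 6091 CPM of Malat1 in TMEM16F KO and 3837 CPM in vector control cells, and those where none leads had 9956 and 3905 CPM. When the phagocyte-like cells of both libraries were divided by Malat1 share into 3 groups of like size, Mertk over both libraries stood at 16.4 CPM in the lowest, 29.6 CPM in the middle and 73.5 CPM in the highest. The TMEM16F KO library had 27.4% of its phagocyte-like cells in the lowest and 41.3% in the highest of these groups, against 39.2% and 25.5% of the vector control library. Within the groups the Mertk ratio was 1.50 (1.21 to 1.86) in the lowest, 0.942 (0.799 to 1.11) in the middle and 1.38 (1.23 to 1.56) in the highest. In the same order the ratio of Malat1 itself was 1.26, 0.970 and 1.21. Inside clusters Mertk was higher in TMEM16F KO in 6 of the 8 with at least 50 UMIs of it, and past 1.5-fold in 1. That was cluster 4, at 29.5 CPM in TMEM16F KO and 19.6 CPM in vector control cells, a ratio of 1.51 (1.10 to 2.07), where 5.2% of all genes were called higher. In cluster 0 the ratio was 1.47 (1.17 to 1.84) and in cluster 1 it was 1.41 (0.873 to 2.28). In cluster 11, with the highest Mertk level of any cluster, it stood at 208 CPM in TMEM16F KO and 187 CPM in vector control cells, a ratio of 1.11 (0.897 to 1.39). In cluster 3 it stood at 97.7 and 96.6 CPM. The part of nuclear RNA in the Mertk difference was not tested.

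Axl varied less over the Malat1 groups. In TMEM16F KO cells it stood at 52.7, 61.0 and 63.3 CPM in the lowest, middle and highest group, and in vector control cells at 103, 103 and 106 CPM. Its ratio was 0.511 (0.459 to 0.568), 0.590 (0.533 to 0.653) and 0.596 (0.534 to 0.664) in these groups, against 0.569 in the whole class. Intron content is given beside the level in the highest Malat1 group over that in the lowest, and their relation was not tested. Elmo1, of whose span 97.6% is intron, stood in the highest Malat1 group at 6.36 times its level in the lowest, Itgb5 (97.0% intron) at 1.13 times, Mertk (95.8%) 4.49 times, Pros1 (94.6%) 1.43 times, Gas6 (91.2%) 0.92 times, Itgav (87.0%) 4.20 times and Axl (84%) 0.990 times, each over both libraries. Cd300lf, Mfge8 and Stab1, at 65.3% to 71.0% intron, stood at 0.886 to 1.30 times.

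**Figure D5:**
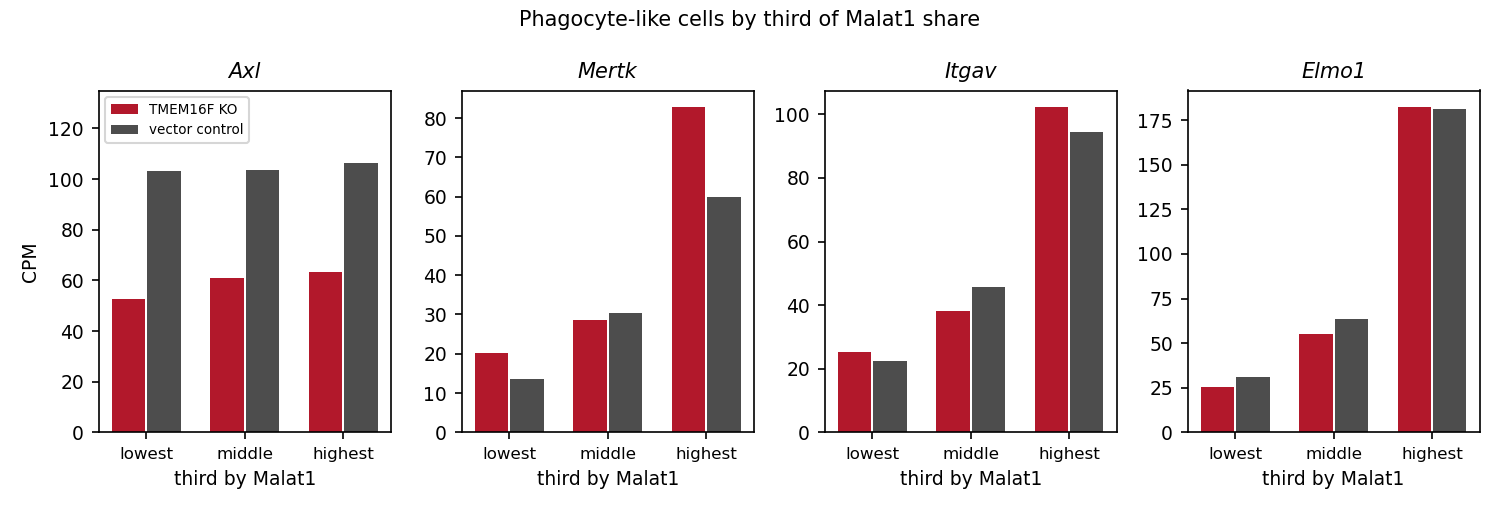
CPM of Axl, Mertk, Itgav and Elmo1 in phagocyte-like cells divided into 3 groups of like size by Malat1 share, TMEM16F KO (red, left) beside vector control (grey, right), 1 library each. Axl is lower in TMEM16F KO in each group, at 52.7 to 63.3 CPM against 103 to 106 CPM in vector control cells, while Mertk, Itgav and Elmo1 are highest in the group with the highest Malat1 share.

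Stab1 (ENSMUSG00000042286, chr14:31139013-31168641, minus strand) had 2107 UMIs in TMEM16F KO and 2270 UMIs in vector control phagocyte-like cells, or 72.4 CPM and 79.0 CPM, a ratio of 0.916 (0.863 to 0.973). After thinning, 13.2% (11.9 to 14.5) of TMEM16F KO and 12.7% (11.5 to 14.1) of vector control cells had a Stab1 UMI. In the Mrc1 set, its main site, the ratio was 0.777 (0.713 to 0.847). In cluster 15, led by C6, Cd209f and Cxcl13 and holding Retnla and Cd163 among its leading genes, Stab1 stood at 115 CPM in TMEM16F KO and 308 CPM in vector control cells, a ratio of 0.373 (0.282 to 0.493). Cluster 15 had 153 TMEM16F KO and 64 vector control cells. The Stab1 ratio was below 1 in 7 and above 1 in 4 of the 11 clusters. In cluster 18 Stab1 was called higher, at 70.6 CPM in TMEM16F KO and 42.2 CPM in vector control cells, a ratio of 1.67 (1.01 to 2.87), where 8.19% of all genes were. With cells weighted alike the ratio over the whole class was 1.07, so its direction depends on the weighting.

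Cd300lf (ENSMUSG00000047798, chr11:115116214-115133992, minus strand) was the most level receptor, at 132 CPM in TMEM16F KO and 122 CPM in vector control phagocyte-like cells, a ratio of 1.08 (1.03 to 1.13). The thinned share was 22.5% in TMEM16F KO and 20.5% in vector control cells. Inside the 11 clusters the Cd300lf ratio was above 1 in 8 and below 1 in 3. It ran from 0.795 (0.678 to 0.934) in cluster 12 to 1.65 (1.09 to 2.53) in cluster 18. Cd300lf was called in cluster 18 alone, where 8.19% of all genes were called higher. Its highest level of all was in neutrophil-like cells, at 246 CPM (192 to 310) in TMEM16F KO and 258 CPM (185 to 350) in vector control cells. Elmo1 stood at 157 and 227 CPM there, and the other 8 genes had 0 to 12 UMIs in a library. Mertk had 0 UMIs in the neutrophil-like cells of either library. The floor there, set at 3 UMIs, was 10.2 CPM in TMEM16F KO and 18.9 CPM in vector control cells. Cd300lf lies among similar genes of the Cd300 family, and the sources used here do not say how reads were divided between them. Neutrophil markers were higher in TMEM16F KO phagocyte-like cells for 5 of 6 tested, with 248 CPM summed over the list in TMEM16F KO and 171 CPM in vector control cells, and their part in the Cd300lf level was not tested.

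Gas6 (ENSMUSG00000031451, chr8:13465374-13494490, minus strand) had 452 UMIs in TMEM16F KO and 491 UMIs in vector control phagocyte-like cells, or 15.5 CPM and 17.1 CPM, a ratio of 0.909 (0.798 to 1.03). This near level sum covered lower levels inside each of the 3 clusters with enough UMIs. In cluster 15, where Gas6 was highest, it stood at 193 CPM in TMEM16F KO and 332 CPM in vector control cells, a ratio of 0.580 (0.456 to 0.738). In cluster 0 it stood at 13.7 and 23.7 CPM, a ratio of 0.581 (0.447 to 0.752), and in cluster 3 at 26.5 and 37.4 CPM, a ratio of 0.709 (0.553 to 0.908). With every cell weighted alike in place of every UMI, the ratio over all phagocyte-like cells was 1.36, so its direction over the whole class depends on the weighting. The thinned share of phagocyte-like cells with a Gas6 UMI was 2.88% (2.28 to 3.58) in TMEM16F KO and 3.89% (3.16 to 4.72) in vector control cells. Thinned to 1000 UMIs the ratio of these shares was 1.23 in place of 0.742, so no order is read from them.

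A Stab1 UMI was more frequent in cells with a Gas6 UMI than in cells without. In thinned phagocyte-like cells of the TMEM16F KO library, 35.9% of cells with a Gas6 UMI and 12.5% of the others had a Stab1 UMI, and in the vector control library 35.4% and 11.8%. A Gas6 UMI was likewise more frequent with a Mertk UMI, in 6.36% of TMEM16F KO cells with one and 2.55% of those without, and in 9.86% and 3.52% in the vector control library, from 15 and 14 cells with both. With an Axl UMI the shares with Gas6 were 3.57% and 2.80% in TMEM16F KO, and 3.22% and 4.02% in the vector control library. Mertk and Axl were close to even with each other, as 7.86% of TMEM16F KO cells with an Axl UMI and 8.82% of those without had a Mertk UMI, and 6.93% and 5.52% in the vector control library.

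The other bridging molecules were sparse. Pros1 (ENSMUSG00000022912, chr16:62854307-62929346, plus strand) stood at 6.15 CPM (5.28 to 7.12) in TMEM16F KO and 6.93 CPM (6.0 to 7.96) in vector control phagocyte-like cells, a ratio of 0.888 (0.721 to 1.09). Mfge8 (ENSMUSG00000030605, chr7:79133768-79149060, minus strand) stood at 9.17 CPM (8.10 to 10.3) in TMEM16F KO and 11 CPM (9.82 to 12.3) in vector control phagocyte-like cells, a ratio of 0.834 (0.706 to 0.985). Its highest level was in stroma-like cells, at 44.0 CPM in TMEM16F KO and 66.2 CPM in vector control cells, from 29 and 132 UMIs.

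The integrin chains Itgav and Itgb5, which form a single receptor for Mfge8, had unlike distributions. Itgb5 (ENSMUSG00000022817, chr16:33829665-33949338, plus strand) stood at 70.6 CPM in TMEM16F KO and 77.6 CPM in vector control phagocyte-like cells, a ratio of 0.909 (0.856 to 0.966). In T-like cells it stood at 7.13 and 2.98 CPM. Over the 11 phagocyte clusters the Itgb5 ratio was below 1 in 7 and above 1 in 4. It was called in cluster 18 alone, at 73.3 CPM in TMEM16F KO and 27.5 CPM in vector control cells. The ratio there was 2.67 (1.48 to 5.09), and 8.19% of all genes were called higher. Itgav (ENSMUSG00000027087, chr2:83724397-83806916, plus strand) stood at 56.0 CPM in TMEM16F KO and 47.5 CPM in vector control phagocyte-like cells, a ratio of 1.18 (1.10 to 1.27), and at 234 and 265 CPM in T-like cells. Itgav, like Mertk, was higher with more Malat1, at 23.6, 41.9 and 99.1 CPM over both libraries in the lowest, middle and highest group of phagocyte-like cells. Its ratio in these groups was 1.12, 0.839 and 1.09.

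Elmo1 (ENSMUSG00000041112, chr13:20090596-20608353, plus strand) stood at 89.3 CPM in TMEM16F KO and 77.9 CPM in vector control phagocyte-like cells, a ratio of 1.15 (1.08 to 1.21). It had the widest range of the members over the Malat1 groups, with 28.6, 59.4 and 182 CPM over both libraries in the lowest, middle and highest Malat1 group, and ratios of 0.816 (0.689 to 0.964), 0.868 (0.774 to 0.975) and 1.01 (0.937 to 1.08). The gene spans 518 kb. Cluster 11, with 36387 CPM of Malat1 and 5.16% of UMIs from ribosomal protein genes, had 714 CPM of Elmo1 and 335 CPM of Itgav. It held 342 TMEM16F KO and 164 vector control cells. The higher Elmo1 sum of the TMEM16F KO library was not seen within any of the 3 groups beyond 1.01-fold. Inside the 9 clusters with at least 50 UMIs of it, the Elmo1 ratio was above 1 in 4 and below 1 in 5. It ranged from 0.650 to 1.30 and was past 1.5-fold in none with its interval leaving out 1. The part of Malat1 share in the Elmo1 difference was not tested.

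By state, 1 of 10 tested members was called in the Mrc1 set (Axl lower), against 7.99% of all genes. In the Mmp12 set 2 of 10 were called (Mertk higher, Axl lower) against 6.13%, in the Il1b set 2 of 8 (the same genes and directions) against 11.5%, and in the Ly6c2 set 1 of 7 (Axl lower) against 8.65%. Where none leads, 4 of 10 were called, with Mertk, Itgav and Elmo1 higher and Mfge8 lower, against 20.5% of all genes called and 15.2% called higher. Malat1 was 2.55-fold higher in TMEM16F KO in those cells, and its part in these calls was not tested.

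In T-like cells Itgav and Elmo1 exceeded their phagocyte level, while the 4 receptors stood at 1.41% to 15% of theirs. Itgav stood at 234 CPM (224 to 245) in TMEM16F KO and 265 CPM (253 to 277) in vector control T-like cells, 419% and 557% of the phagocyte level. Elmo1 stood at 192 CPM in TMEM16F KO and 156 CPM in vector control T-like cells, a ratio of 1.23 (1.14 to 1.33). By the 1.5-fold rule 3 of 8 tested members were called, all higher in TMEM16F KO, against 8.77% of all genes called and 4.8% called higher. These were Cd300lf at 11.3 CPM in TMEM16F KO and 5.26 CPM in vector control cells (2.16-fold), Itgb5 at 7.13 and 2.98 CPM (2.39-fold) and Pros1 at 7.60 and 4.55 CPM (1.67-fold). With cells weighted alike the Cd300lf ratio was 1.32, under the rule, and the Itgb5 ratio 5.42. Axl stood at 8.88 CPM in TMEM16F KO and 12.6 CPM in vector control T-like cells, Stab1 at 4.44 and 3.98 CPM, Mfge8 at 6.90 and 6.96 CPM, Mertk at 1.75 and 0.426 CPM, and Gas6 at 1.17 and 0.995 CPM.

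The 10 macrophage markers moved the same way in T-like cells. Of them 8 were called higher in TMEM16F KO, their sum was 1028 CPM in TMEM16F KO and 585 CPM in vector control cells, and none was at 0. Each stood at 4.59% to 6.47% of its phagocyte level in TMEM16F KO T-like cells and at 3.25% to 4.52% in vector control T-like cells. Cd300lf stood at 8.60% and 4.31% of its phagocyte level, Itgb5 at 10.1% and 3.84%, Stab1 at 6.14% and 5.04%, Mertk at 3.94% and 1.41%, and Axl at 15% and 12.2%. Pros1 stood at 124% and 65.7%. The part of macrophage RNA in the T-like levels of Cd300lf, Itgb5 and Pros1 was not tested.

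Among T-like subsets, Itgav, whose protein pairs with several beta chains in T cells, differed most in cells with a Foxp3 UMI, the marker of regulatory T cells. It stood at 276 CPM (245 to 309) in 177 TMEM16F KO cells and 414 CPM (371 to 461) in 124 vector control cells, a ratio of 0.666 (0.568 to 0.781). It was 1 of 2 members tested there and the only call, with 8.03% of all genes called and 4.39% called lower. Malat1 also stood lower there, at 4106 CPM in TMEM16F KO and 5427 CPM in vector control cells, and Itgav over all T-like cells was 4.84 times higher in the highest than in the lowest Malat1 group. Its part in the difference was not tested. In Cd8 cells Itgav stood at 230 CPM in TMEM16F KO and 252 CPM in vector control cells, a ratio of 0.911 (0.844 to 0.983), and 1 of 6 tested members, Cd300lf, was called there against 9.01% of all genes.

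In NK-like cells Elmo1 stood at 243 CPM (218 to 270) in TMEM16F KO and 153 CPM (126 to 184) in vector control cells, a ratio of 1.59 (1.28 to 1.99). Malat1 was near level in the class, at 7253 and 6898 CPM. Itgav stood at 128 and 90.8 CPM, a ratio of 1.41 (1.06 to 1.90). Of the 10 genes 2 had enough UMIs in NK-like cells, the other 8 having 0 to 21 UMIs in a library, and 1 was called, against 10.4% of all genes called and 7.41% called higher. The macrophage markers summed to 836 CPM in TMEM16F KO and 512 CPM in vector control NK-like cells, with none at 0, and Elmo1 stood at 272% and 196% of its phagocyte level.

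Dendritic-like cells were few, and 4 of 5 tested members were past 1.5-fold there, against 9.98% of all genes. Cluster 10, with Il12b and Ccl22 among its leading genes, held 281 TMEM16F KO and 234 vector control cells, 170 of them dendritic-like. The libraries were not compared inside that cluster, and the values here are for the dendritic-like class. Axl stood at 37.1 CPM in TMEM16F KO and 60.5 CPM in vector control cells (31 and 66 UMIs), a ratio of 0.613 (0.387 to 0.953). Cd300lf stood at 20.3 and 47.7 CPM, a ratio of 0.427 (0.231 to 0.750), and Elmo1 at 129 and 77.0 CPM, a ratio of 1.68 (1.25 to 2.26). Mfge8 stood at 15.6 and 49.5 CPM, a ratio of 0.314 (0.157 to 0.583), but 21 of its 54 vector control UMIs came from 1 cell. Itgav was near level at 35.9 and 33.9 CPM, and the other 5 genes had 0 to 6 UMIs in a library. The makeup of the class differed as well, with Ccl17, a chemokine of mature dendritic cells, at 552 CPM in TMEM16F KO and 1261 CPM in vector control cells, and Xcr1, a receptor of the cross-presenting type, at 118 and 48.6 CPM. Of 10 macrophage markers 7 were tested there, with C1qa, C1qb and C1qc called lower and Apoe and Pf4 called higher in TMEM16F KO, none at 0, and a sum of 698 CPM in TMEM16F KO and 848 CPM in vector control cells. Csf1r stood at 15.6 and 40.4 CPM and Cd14 at 61.0 and 106 CPM. The part of these differences in the ratios was not tested.

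In stroma-like cells 3 of 5 tested members were past 1.5-fold, against 14.1% of all genes. Itgb5 stood at 77.4 CPM in TMEM16F KO and 50.2 CPM in vector control cells, a ratio of 1.54 (1.08 to 2.18), and Mfge8 had a ratio of 0.665. Gas6 stood at 60.7 and 7.52 CPM, but its 40 TMEM16F KO UMIs came from 6 cells, and 28 of them from 1 cell. Itgav stood at 54.6 and 58.7 CPM, and the 5 genes that were not tested had 1 to 29 UMIs in a library. The macrophage markers summed to 1615 CPM in TMEM16F KO and 636 CPM in vector control stroma-like cells, with none at 0. Markers of endothelium differed too, with Emcn at 15 UMIs in TMEM16F KO and 0 UMIs in vector control cells, Egfl7 at 13 and 3 UMIs, Cdh5 at 8 and 1 UMIs, Kdr at 3 and 0 UMIs, and Cldn5 and Ptprb at 0 in both. The part of either in these ratios was not tested.

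The level of each gene was compared over 24 points, the classes and states of each library. The 11069 genes with at least 200 UMIs, the members included, were used, and the 3 other genes best correlated with each were named. Points of the same library share depth and preparation, and rare classes are noisy, so the coefficients are descriptions. Mertk ran with C1qb, Apoe and C1qa (Pearson r 0.96 each), complement and lipid genes of macrophages. These 3 are also markers that set the phagocyte-like class, so a gene read mostly in that class will run with them. Stab1 ran with Ctsb, Ccl12 and Tmed10 (0.94 to 0.95), Cd300lf with Igsf6, Fcgr2b and Bst1 (0.97 each), and Axl with Sap30, Idh2 and Dstn (0.92 to 0.93). Gas6 ran with Olfml3, Pmp22 and C4b (0.88 to 0.89), Pros1 with Thap11, Aktip and Cluh (0.84 to 0.88), and Mfge8 with Pdia5, Rnf181 and Cltb (0.84 to 0.87). Itgav ran with Atxn1, Cd27 and Leprotl1 (0.96 each), Itgb5 with Camk1, Blvrb and Ccl2 (0.93 to 0.95), and Elmo1 with Dock2, Mapre2 and Celf2 (0.95 to 0.97). Dock2 is the exchange factor that Elmo proteins bind in leukocytes. Among the members, Mertk correlated with Stab1 and Cd300lf at 0.88 each and Axl with Mertk at 0.60, while Itgav and Itgb5 correlated at -0.61.

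Other genes of the pathway were taken from 6 lists by role, 56 genes in all, of which 45 could be tested in phagocyte-like cells. By the 1.5-fold rule 3 were higher and 0 lower in TMEM16F KO, against the 5.74% and 4.43% of all genes given above, so the share is near the background, and their median log2 ratio was 0.13. Scarf1, a scavenger receptor for phosphatidylserine and C1q, stood at 14.0 CPM in TMEM16F KO and 9.12 CPM in vector control cells, a ratio of 1.53 (1.31 to 1.80). Thbs1, thrombospondin 1, which bridges dying cells to Cd36 and alpha v integrin, stood at 201 and 116 CPM, a ratio of 1.74 (1.67 to 1.81). Abca1, a cholesterol exporter that macrophages use after engulfment, stood at 214 and 122 CPM, a ratio of 1.76 (1.68 to 1.83).

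Among the other receptors 7 of 14 were tested, and Trem2, a lipid receptor of macrophages, stood at 498 CPM in TMEM16F KO and 444 CPM in vector control phagocyte-like cells. Tyro3, the third kinase of the Axl and Mertk family, had 2 and 1 UMIs, and Timd4, a receptor of resident macrophages, 17 and 14 UMIs. Cd36 stood at 36.9 and 26.8 CPM, a ratio of 1.38 (1.25 to 1.51). Of the bridging and coating proteins 6 of 7 were tested, with Lgals3 at 3799 CPM in TMEM16F KO and 3081 CPM in vector control cells and Calr, the eat-me signal calreticulin, at 458 and 453 CPM. Itgb3, the other beta chain that Mfge8 uses, stood at 1.13 and 0.835 CPM, and Itgb1 at 156 and 155 CPM.

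In the engulfment signalling list 12 of 14 genes were tested and none was past 1.5-fold. Dock2 stood at 130 CPM in TMEM16F KO and 113 CPM in vector control phagocyte-like cells, Dock1, the Elmo1 partner of many other cells, at 22.1 and 19.6 CPM, Rac1 at 430 and 459 CPM, and Rac2 at 224 and 280 CPM, a ratio of 0.799 (0.773 to 0.825). Of the sheddases and brakes, Adam17, which cuts Mertk from the cell surface, stood at 83.8 and 81.7 CPM. Adam10, which cuts Axl, stood at 76.5 and 90.5 CPM. Socs1, a brake induced by these kinases, stood at 124 and 82.8 CPM. Its ratio of 1.50 (1.42 to 1.58) over the class stayed just under the rule. By state Socs1 was called higher in the Mrc1, Mmp12 and Il1b sets, where 3.43%, 4.07% and 6.4% of all genes were. In the cargo handling list, Lipa, the lysosomal lipase, stood at 65.9 and 45.1 CPM and Nr1h3, the sterol sensor LXR alpha, at 16.2 and 11.8 CPM, a ratio of 1.37 (1.19 to 1.58).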

How the data were processed

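Single-cell RNA of 2 tumour libraries was measured with 10x Genomics 3′ chemistry, per the labels' protocols. The authors deposited raw UMI counts for each gene and barcode. Per the file headers, Cell Ranger 8.0.0 made the matrices, and the submitters' processing notes name Seurat 3.1.1 and the mm10 build. The sources used here do not give the annotation or the strand setting of the counting. The series' design text counts 10782 cells, against 11246 barcodes deposited and 10716 kept here.

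Barcodes were kept from 200 genes upward if under 20% of their UMIs were mitochondrial. The automatic Scrublet threshold marked 0 barcodes in either library, so the highest scores were left out at 0.8% per 1000 barcodes, removing 287 TMEM16F KO and 221 vector control barcodes. Summed UMIs were scaled per 1000000. A cell took the class whose marker share, scaled by that list's median in cells with at least 50% of its markers, was at least 0.1 and led by 2 times, with UMIs of at least 2 markers. In this way 533 TMEM16F KO and 284 vector control cells were mixed and 175 and 173 unassigned, 312 assigned cells lay within 1.25 times of the lead, and 556 phagocyte-like cells had a state lead under 1.25 times. Clusters used 2000 variable genes, 30 components, 15 neighbours and the Leiden algorithm at resolution 1 (scanpy 1.11.5, leidenalg 0.10.2, Python 3.11.15), with the 10 genes left out. Names of classes were rebuilt here, so differences from the study may come from them.

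All 10 genes were followed in every main class, with each level in the plot by class and, in the text, the values of those with enough UMIs and the range of the others, and of the pathway genes those past 1.5-fold in phagocyte-like cells and 2 to 4 others per role. Members, lists and thresholds were chosen with earlier results of these data known. The ratio and call procedure was tested on simulated counts. Promoters came from RefSeq, with all 10 genes matched, and gene models from GENCODE M21, which shares the assembly of mm10. Nt5dc2, Rab37 and Tmem255b overlap Stab1, Cd300lf and Gas6 on the other strand, so without the strand setting their reads may not be separable.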

Additional observations from a re-analysis of the deposited data

How the results depend on the processing

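No paired analysis was possible because each group has 1 library and no test was run, and for the same reason no replicate could be left out. Over the class definitions, depth and mitochondrial limits, doublet removal, scalings and weightings tried, and the Malat1 groups and state weighting added after the data were seen, the Axl ratio in phagocyte-like cells ranged from 0.511 to 0.612 against 0.569, and no called ratio changed direction. With cells weighted alike the phagocyte ratios were 1.96 for Mertk, 0.606 for Axl, 1.07 for Stab1, 1.36 for Gas6, 1.48 for Itgav, 0.987 for Itgb5 and 1.48 for Elmo1, so Mertk passed 1.5-fold and Stab1 and Gas6 crossed 1. With the 5 states weighted alike they were 0.612 for Axl, 0.853 for Stab1 and 1.23 for Elmo1. In the group with the lowest Malat1 share they were 0.511 for Axl, 0.843 for Stab1, 0.694 for Mfge8 and 0.816 for Elmo1, and in the highest 0.995 for Stab1, 0.986 for Cd300lf, 1.04 for Gas6, 1.09 for Itgav and 1.01 for Elmo1. In T-like cells the Itgb5 ratio was 5.42 with cells weighted alike, the Cd300lf ratio 1.32, and the Stab1 ratio 2.02 with classes from clusters. The cause of these moves was not tested. A minimum of 200 UMIs left fewer genes tested and 837 calls in all kept cells, 677 in phagocyte-like and 317 in T-like cells, against 1549, 1235 and 886, and a 2-fold rule 527, 366 and 295. Depth limits Pros1, Mfge8 and Gas6 outside their main classes, where 1 cell can set a level.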
